A study of Mus musculus with 6 samples.

Results

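The genes described here encode cytoplasmic intermediate filament proteins: the neurofilament subunits Nefl, Nefm and Nefh, their neuronal partners Ina and Prph, the simple-epithelial keratins Krt8 and Krt18, and Vim, Nes and Gfap of progenitors and glia. They are 10 of the 21926 genes in the tables, listed by name and chosen by measured values: an earlier look at these data had found high Krt18, Nefm, Pdyn and Nr5a1 counts together in 1 cluster of neurons. All 10 had a row, and 9 had a count in neurons. The cells were sorted by fluorescence from the hypothalamus of Ai14f/+;Sf1-Cre mice at postnatal day 10, as 3 female and 3 male samples of 1 plate of 96 wells each, dissociated with papain and prepared with the BD Precise whole-transcriptome kit. Each sample is taken as 1 mouse, since the design text gives 3 animals of each sex. Sf1-Cre is driven by the regulatory DNA of Nr5a1, the gene for the nuclear receptor SF-1 that marks the ventromedial hypothalamus, and Ai14 is a Cre-dependent red fluorescent reporter. Every mouse of both sexes carried both alleles, no other genotype was analysed here, and a cell can keep the reporter after it has stopped making Nr5a1 transcript.

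Intermediate filaments are assembled from coiled-coil proteins into ropes that resist stretch. In axons the light subunit Nefl forms the core with Nefm, Nefh and Ina, and the medium and heavy subunits carry long tails that space the filaments and go with axon calibre. Keratins differ in that a type I chain such as Krt18 forms filaments only with a type II chain, which in simple epithelia is Krt8, and an unpaired chain is usually degraded as protein. Vim and Nes mark dividing neural progenitors, Vim also tanycytes and vessels, and Gfap marks astrocytes.

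Of the 576 wells, 530 held at least 500 detected genes and under 25% mitochondrial counts. Among them 517 were neurons by a count of at least 3 of 10 pan-neuronal genes and of more of these than of any glial, vascular, pituitary or epithelial list, and 407 of the 517 also held a count of Slc17a6, the vesicular glutamate transporter of this region. The plates gave 78 to 92 neurons each. Levels are counts per 1000000 counts (CPM). Female 2 stood apart in depth, with a median of 2120 counts per neuron against 5536 to 7979.5 in the other 5 mice. The summed neurons of a mouse held 184939 to 782366 counts. The 13 kept wells that were not neurons held astrocyte genes at a summed 10439 CPM in female 1, where 10 of them lay. The samples are labelled as ventromedial hypothalamus from a rough dissection: Nr5a1 was counted in 156 of the 517 neurons, and Pomc, a gene of the neighbouring arcuate nucleus, in 14 of 83 neurons with and 55 of 434 without a Krt18 count. No doublet caller was run, the plates share well names because each is a separate plate, and 0 wells had identical counts on different plates.

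Krt8 and Krt18 are neighbours on chromosome 15 of GRCm38, 23697 bases apart with 0 annotated genes between them: Krt8 spans 101996698 to 102004482 on the minus strand and Krt18 spans 102028180 to 102032027 on the plus strand. The stretches just upstream of both are shown because the pair is usually transcribed together and only Krt18 was regularly counted here. They are RefSeq promoter bases of GRCm38.p6, cut to the part outside the annotated gene, chr15:102027966-102028179 on the plus strand for Krt18 and chr15:102004483-102004592 on the minus strand for Krt8. Capitals mark AGGTCA, the core half-site bound by many nuclear receptors, SF-1 among them.
Krt18: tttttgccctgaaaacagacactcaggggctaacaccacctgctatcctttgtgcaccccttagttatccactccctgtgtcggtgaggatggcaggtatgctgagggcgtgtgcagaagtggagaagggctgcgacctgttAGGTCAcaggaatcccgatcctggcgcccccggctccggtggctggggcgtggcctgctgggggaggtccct
Krt8: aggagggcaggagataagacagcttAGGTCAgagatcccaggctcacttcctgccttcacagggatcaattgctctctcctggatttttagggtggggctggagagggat
The motif search covered the 250 bases before the RefSeq transcript start on both strands. AGGTCA lay 108 to 103 bases upstream of the Krt18 start and 225 to 220 bases upstream of the Krt8 start, and once on the opposite strand 85 to 80 bases upstream of Gfap, against 14.0% of 32851 promoters that hold it. The longer CAAGGTCA, which contains AGGTCA, was found in 1.33% of all promoters and in 0 of the 7 members that have a promoter entry. TATAAA was found in Prph and Vim (12.4% of all promoters) and GGGCGG in Ina, Prph and Nes (32.7%). These are matches of letters and not measured binding.

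Nefl was the most abundant of the 10 genes. Summed over the neurons of a mouse it stood at 509.5, 584 and 593 CPM in females 1, 2 and 3 and at 541, 477 and 497 CPM in males 1, 2 and 3, a mean of 534 ± 47.4 (SD, n = 6 mice), and 384 of 517 neurons held a count. The sexes overlapped and no mouse stood far from the rest. Ina, which encodes alpha-internexin and appears early in neuronal development, followed with 173 ± 45.4 CPM (n = 6) and 296 neurons, its highest value being 257 CPM in female 3. In summed counts, fewer expressing cells and less RNA per cell cannot be told apart.

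Nefm was counted in 177 neurons at 120.5 ± 34.9 CPM (n = 6) and Nefh, the heavy subunit that rises as axons mature, in 57 neurons at 19.4 ± 9.43 CPM (n = 6). Nefm stood at 162, 141 and 132 CPM in the 3 females and at 133, 76.8 and 78.7 CPM in the 3 males, so male 1 lay among the females. Nefh ranged from 10.1 CPM in female 3 to 34.7 CPM in female 1. Prph, the peripheral subunit peripherin, had 5 counts in 4 neurons of female 3 and male 1, all 4 of which also held Nefl, Nefm and Ina. Nefl (68083863 to 68089095, plus strand) lies within the span of Nefm (68082590 to 68124846, minus strand) on chromosome 14, and 32.8% of the exonic bases of Nefl (1108 bases) lie within Nefm exons of the opposite strand. No source used here says whether the authors' counting used strand, so reads of this pair may in part be assigned to the wrong gene.

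Krt18 was counted in 83 of 517 neurons (16.1%, 95% exact binomial interval 13.0 to 19.5%, which covers counting error only). Its level was 83.4, 32.4 and 25.3 CPM in females 1, 2 and 3 and 38.3, 43.1 and 50.3 CPM in males 1, 2 and 3. Female 1 was the highest of the 6 mice, and the males lay within the range of the females. The counts were low, with 1 count in 49 neurons, 2 in 16 and 3 or more in 18, up to 7 in 1 neuron. Of the 13 kept wells that were not neurons 0 held Krt18, too few wells to measure free RNA. In the 83 neurons the defining pituitary genes gave 1 count over 9 genes (8 of them at 0) and the genes of other epithelia 1 count over 5 (4 at 0, among them Cdh1 and Ttr), with summed levels from 0 to 4.42 CPM per mouse against 0 to 9.43 and 1.57 to 9.92 CPM in neurons with no Krt18 count. The call of neurons, which needs more neuronal than pituitary or epithelial genes, partly fixed such low values. Summed astrocyte genes reached 108 CPM per mouse with Krt18 and 65.1 CPM without, and tanycyte genes 99.9 and 64.2 CPM. Arcuate genes reached 2925 and 1124 CPM. Meningeal genes were also higher in their highest mouse, and oligodendrocyte, microglial and vascular genes lower.

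Krt8 had 2 counts in all, in 2 neurons of male 1. One of these neurons, with 12994 counts in total, also held 3 counts of Krt18, and the other, with 5170 counts, held none. Per kilobase of exon, Krt18 stood at 31.7 CPM and Krt8 at 0.218 CPM. So 1 of 83 neurons with a Krt18 count had a count of its usual partner, and the mean Krt8 level of 0.426 CPM over the 6 mice was below the 0.909 CPM that 3 counts in all summed neurons make. Krt8 transcript in the other neurons was not detectable at this depth. Exons of Krt8 share 101 bases with the long noncoding RNA gene Gm36026 of the other strand, and 1 annotated pseudogene carries its name.

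The order of the 10 genes per kilobase of exon was Nefl (158 CPM), Ina (53.5), Krt18 (31.7), Nefm (20.8), Nefh (4.85), Vim (1.68), Prph (0.601), Gfap (0.517), Krt8 (0.218) and Nes (0). Neighbours in this order were not compared with a test, and whether counts from this kit scale with exon length was not tested. In CPM not divided by length, Nefm (120.5) stood above Krt18 (45.5) and Gfap (2.18) above Prph (1.20). Vim had 25 counts in 18 neurons, at 24.3 CPM in male 2, 11.8 in female 3 and 1.29 to 5.41 CPM in the other 4 mice. Gfap had 7 counts in 6 neurons, none with an astrocyte gene counted beside it, and 1 count in a well that was not a neuron and held 4 of 8 astrocyte genes. Nes was at 0 counts in all wells; 3 neurons of 517 would make 0.580%, and the 95% exact interval for neurons with a count, not for neurons that express the gene, reaches 0.711%.

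**Figure D1:**
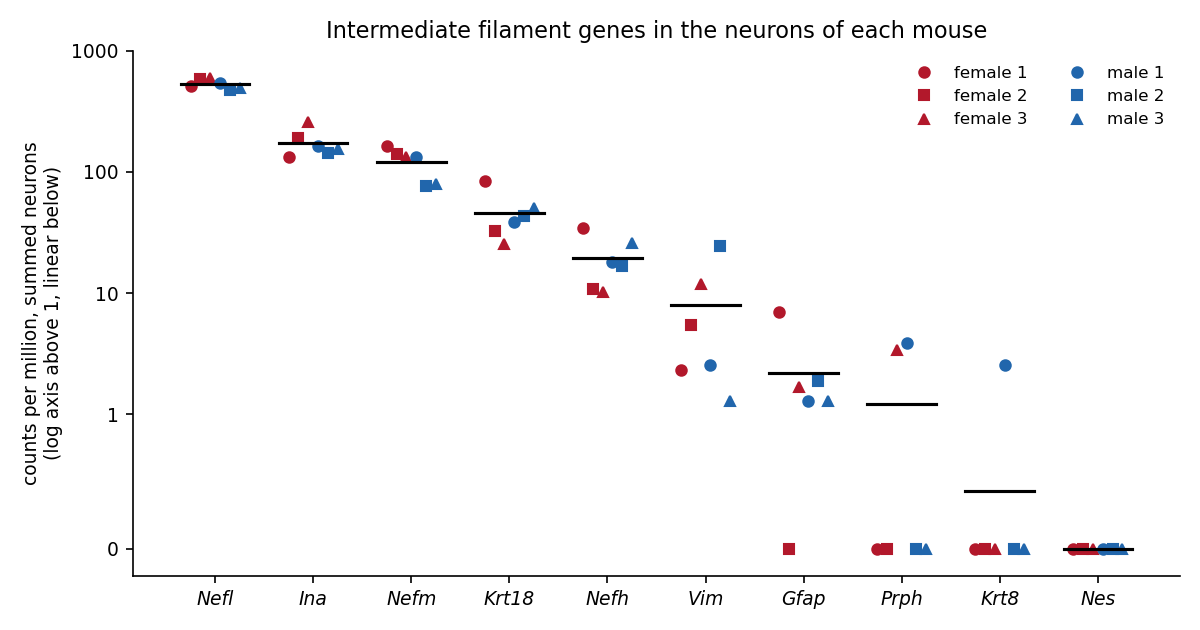
Level of each of the 10 genes in the summed neurons of each mouse, in CPM on an axis that is logarithmic above 1 and linear below. Points are mice, red for females and blue for males, and black bars are means over 6 mice. Nefl lies between 477 and 593 CPM in all 6 mice, Krt18 between 25.3 and 83.4 CPM, and Krt8 is above 0 in male 1 only.

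The neurofilament genes overlapped heavily in single neurons. Nefm was rarely seen without Nefl: 164 of the 177 Nefm neurons (92.7%) held Nefl, whereas 42.7% of the Nefl neurons held Nefm. Nefh was seen with Nefl in 46 of 57 neurons and with Nefm in 28 of 57. The commonest combinations of Nefl, Nefm, Nefh and Ina were Nefl with Ina (113 neurons), Nefl, Nefm and Ina (91 neurons) and Nefl alone (87 neurons), and 70 neurons held none of the 4. Missing counts at this depth do not show missing transcript.

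Neurons with a Krt18 count held more kinds of neurofilament transcript. Of the 83, 77 (92.8%) had Nefl, 55 (66.3%) Nefm, 51 (61.4%) Ina and 15 (18.1%) Nefh, against 70.7%, 28.1%, 56.5% and 9.68% of the 434 neurons with no Krt18 count. They were also sequenced more deeply, with a median of 8360 counts against 5484.5. After every neuron of at least 2000 counts was thinned to 2000 counts, which left 82 and 393 neurons, the shares were 72.0 and 50.6% for Nefl, 34.1 and 13.5% for Nefm, 30.5 and 26.7% for Ina and 4.88 and 2.54% for Nefh. All 18 neurons with 3 or more Krt18 counts held Nefl and 14 of them held Nefm.

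**Figure D2:**
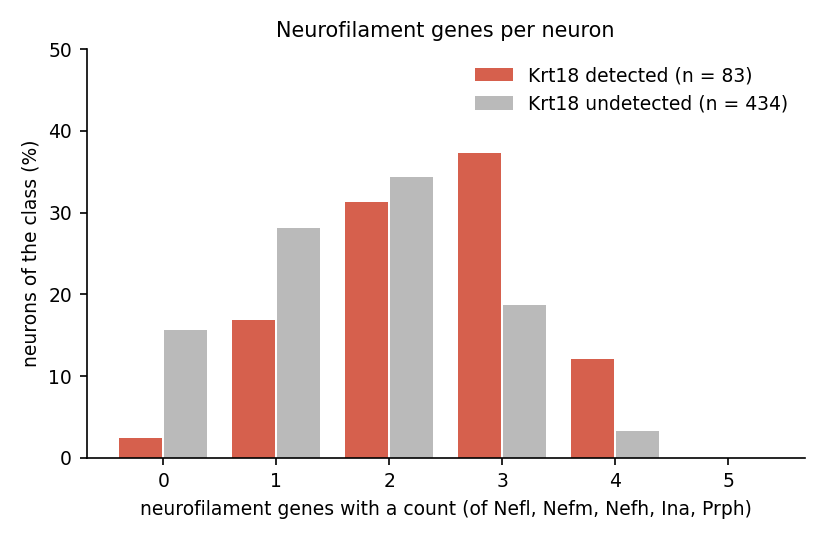
Share of neurons, in percent of their class, by how many of the 5 genes Nefl, Nefm, Nefh, Ina and Prph had a count, for the 83 neurons with a Krt18 count (red) and the 434 without (grey), as deposited and not thinned. With Krt18, 31 neurons held 3 and 10 held 4 of these genes and 2 held none, and without it 81 held 3, 14 held 4 and 68 held none.

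To compare transcript levels within each mouse, counts of Slc17a6 neurons were summed over those with and those without a Krt18 count in the 5 mice that had at least 5 neurons in each sum (9 to 21 with Krt18, 47 to 70 without), leaving out female 2, which had 3. Nefl rose in the Krt18 neurons. It went from 512 to 525 CPM in female 1, from 585 to 841 in female 3, from 510 to 849 in male 1, from 428 to 801 in male 2 and from 395 to 766 in male 3. In 4 of the 5 mice the Krt18 neurons stood above every sum without Krt18, and in female 1 the difference was small. The log2 fold change was 0.69 (SE 0.10, edgeR's quasi-likelihood test with mouse as a block, Benjamini-Hochberg adjusted p = 9.45e-06, higher in 5 of 5 mice), in a fit that called 1.99% of the 4012 genes tested and 1.37% as higher. The call was lost when neurons were thinned to 2000 counts before summing (log2 0.57, edgeR adjusted p = 0.20) and without the mouse term (log2 0.66, edgeR adjusted p = 0.219). Nefl is also not independent of Nefm, which helped to choose the genes: 164 of the 177 Nefm neurons held Nefl, and both genes share exonic bases.

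Ina did not follow Nefl. Its level was 174 ± 48.1 CPM without and 164 ± 54.1 CPM with Krt18 (n = 5 mice), it was higher in 3 mice and lower in 2, and the log2 fold change was -0.11 (SE 0.16, edgeR adjusted p = 0.874). Without male 1 that value was 0.03. Nefh, Prph, Krt8, Vim, Nes and Gfap were too low to be tested, so of the other 9 members Nefl, Ina and Nefm entered this fit. Single Krt18 neurons were deeper in each of the 5 mice, with medians of 5922 to 11618 counts per neuron against 5492 to 7676, though fewer neurons entered their sums. The part of depth was not tested apart from the thinning.

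Nefm, Pdyn and Nr5a1 had been seen with Krt18 in 1 cluster of these neurons before the genes were chosen, so their values are given as a description and with no test. Nefm, without and with Krt18, was at 122 and 234 CPM in female 1, 127 and 207 in female 3, 129 and 203 in male 1, 53.9 and 188 in male 2, and 51.1 and 155 in male 3. The 2 sets of values did not overlap, and the log2 fold change was 1.08. Pdyn, which encodes the opioid precursor prodynorphin, went from 188 ± 40.3 to 475 ± 96.5 CPM (n = 5 mice, log2 1.31), again with no overlap. Nr5a1 went from 76.4 ± 30.5 to 122 ± 71.7 CPM (n = 5 mice, log2 0.60), was higher in 4 of 5 mice and overlapped widely. In the same fit 5.21% of all genes were higher and 7.08% lower in every mouse.

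**Figure D3:**
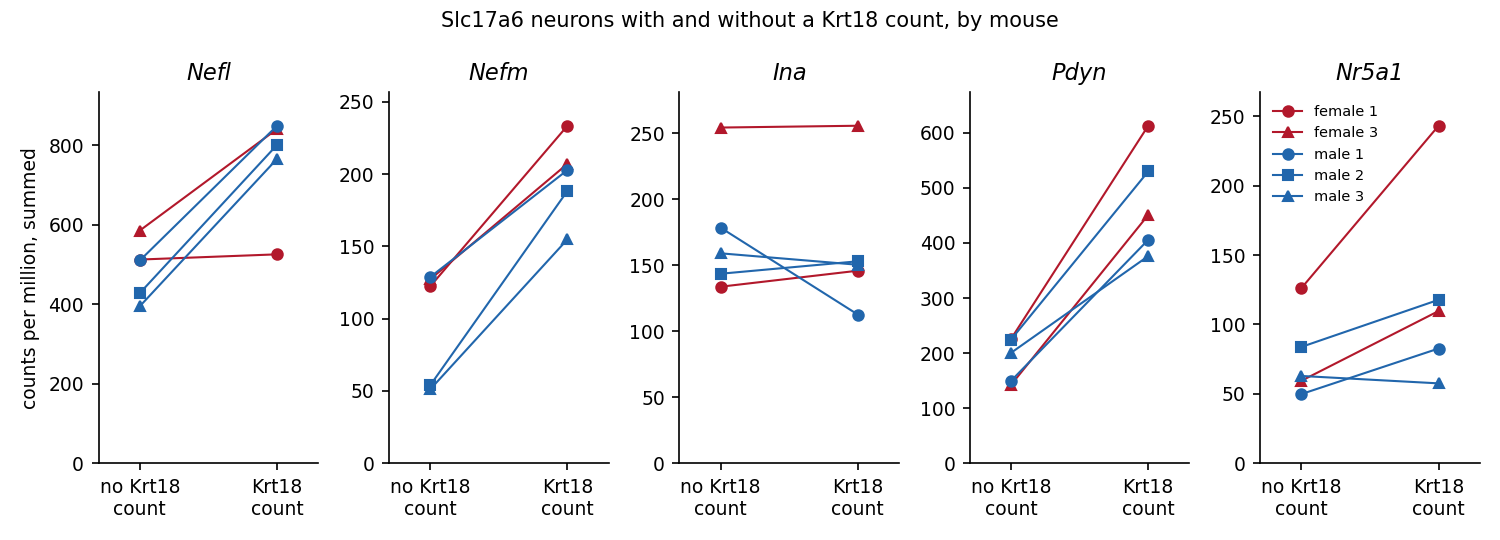
CPM in summed Slc17a6 neurons without (left) and with (right) a Krt18 count, for 5 genes, with 1 line per mouse (red females, blue males, female 2 not included). Nefl, Nefm and Pdyn lie higher on the right in all 5 mice, Ina moves either way, and Nr5a1 is higher in 4 mice.

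The shares of neurons with a count, compared over the same 5 mice after thinning, were more scattered. Nefl was counted in 70.0 ± 14.4% of Krt18 neurons and in 52.7 ± 13.0% of the others (n = 5 mice). It was higher in 4 of 5 mice, and the difference of 17.3 percentage points had p = 0.125 in a two-sided exact sign-flip permutation test, adjusted p = 0.281 over 9 readouts, where the smallest p that 5 mice allow is 0.0625. Ina was counted in 26.9 ± 12.3% and 27.8 ± 9.51% (n = 5, exact permutation p = 0.688, adjusted p = 1). After thinning to 4000 counts Ina was counted in 38.8% with and 51.1% without Krt18, a difference of -12.3 points that was lower in 5 of 5 mice (n = 5, exact permutation p = 0.0625, the smallest possible, adjusted p = 0.141). At 2000 counts Nefh was counted in 4.29 ± 7.22% and 3.11 ± 1.47% (n = 5, exact permutation p = 0.875, adjusted p = 1). For description, Nefm was counted in 37.0 ± 6.17% and 11.2 ± 7.96%, Pdyn in 50.5 ± 4.07% and 23.6 ± 2.97%, and Nr5a1 in 22.6 ± 13.8% and 12.8 ± 3.50%.

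Most of the other axonal cytoskeletal genes called in the Krt18 neurons fell. Of 23 microtubule genes of the axon, 22 were tested, 1 rose and 3 fell (1.37 and 0.623% of all genes did), with a median log2 fold change of -0.07 against 0.0034 over all genes. Tubb4a, a neuronal beta-tubulin, rose from 776 to 938 CPM (log2 0.29, edgeR adjusted p = 0.0494), while Tubb2b, another beta-tubulin, fell from 1761 to 1418 CPM (log2 -0.28, edgeR adjusted p = 0.0218). Dpysl3, a microtubule-binding growth cone protein gene, fell from 268 to 172 CPM (log2 -0.63, adjusted p = 0.00895 by edgeR), and Mapt, which encodes tau, fell from 428 to 295 CPM (log2 -0.49, adjusted p = 0.0296 by edgeR, lower in 4 of 5 mice). Among 15 axonal motor genes 14 were tested and Dync1h1, the dynein heavy chain gene, fell from 108 to 42.9 CPM (log2 -1.28, edgeR adjusted p = 0.00321, lower in 5 of 5 mice), and the median of the list was -0.13. None of these 5 calls was made by DESeq2, and no gene was called as falling after thinning to 2000 counts, where fewer genes were tested. Leaving out 1 mouse gave edgeR adjusted p of 0.0599 to 0.218 for Tubb4a in every case, up to 0.116 for Tubb2b (lost without female 1, female 3, male 2 or male 3), up to 0.416 for Mapt (lost without female 3, male 1 or male 2) and 0.163 for Dpysl3 without male 1.

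The other lists gave no call in this fit. Of the 16 cytolinkers and filament-binding chaperones 7 were tested (median log2 -0.13), of the 8 growth and regeneration genes 3 (median 0.06), of the 8 immediate early genes 1, and of the 21 other intermediate filament and lamin genes 3 (median 0.44). Of the 80 genes called, 55 rose and 25 fell, and 40 were called without male 1. Thinning to 2000 counts left 6 rises and 0 falls among 1238 genes tested. DESeq2 called 26 rises and 3 falls, and edgeR without the mouse term 1 rise and 0 falls. The 80 include Pdyn and Nefm, which helped to choose the genes described here. Leaving these and Nefl aside, other genes were listed here only if they moved the same way in every mouse. Under that rule the rises with the smallest p were Gpx3, a secreted glutathione peroxidase (584 to 1001 CPM, log2 0.78), Calb1, the calcium buffer calbindin (605 to 989 CPM, log2 0.72), and A230065H16Rik (180 to 335 CPM). Next came the metallothionein gene Mt3 (588 to 890 CPM), the hydrolase gene Cmbl (87.7 to 205 CPM), the G-protein subunit gene Gng13 (110 to 218 CPM) and the LIM protein gene Crip2 (343 to 544 CPM). The falls with the smallest p, beside Dync1h1, were Cartpt, the CART peptide precursor (87.5 to 9.53 CPM, log2 -3.31), the ubiquitin ligase gene Ttc3 (882 to 574 CPM), Tmem176b (98.8 to 32.9 CPM), Rprm (170 to 76.9 CPM), Nnat (2801 to 2136 CPM), Fgf13 (175 to 67.7 CPM) and the adhesion gene Ncam1 (392 to 272 CPM). All of these moved the same way in 5 of 5 mice, as that rule required. Pomc also rose (log2 1.41, edgeR adjusted p = 2.5e-05), with a smaller p than Mt3, but did not meet the rule. With 1 mouse left out, the calls of Fgf13 and Ncam1 were lost without male 1 (edgeR adjusted p = 0.0642 and 0.12) and that of Nnat without male 2 (edgeR adjusted p = 0.0744).

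Other keratin genes were looked at because Krt8 was all but missing, and those named here were chosen after their counts were seen. The counts covered 54 keratin genes, of which 29 had reads in neurons. The type II gene Krt1 had 250 counts in 175 neurons (82.9 ± 28.6 CPM, n = 6 mice), more than Krt18, and the type I gene Krt10, its epidermal partner, had 164 counts in 139 neurons. Krt77, also type II, had 66 counts in 56 neurons, and Krt222, a type I relative, had 55 counts in 50. Per kilobase of exon Krt1 stood at 18.8 CPM, Krt10 at 25.7 CPM and Krt18 at 31.7 CPM. Without division by length they stood at 82.9, 54.3 and 45.5 CPM, in the reverse order. Krt10 overlaps the gene Gm11940, while Krt1, Krt77 and Krt222 overlap no annotated gene.

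Among Slc17a6 neurons Krt1 was counted in 25 of 73 with Krt18 (34.2%) and in 115 of 334 without (34.4%), although the former were deeper. In pooled counts it stood at 49.98 CPM with and 76.2 CPM without Krt18, and in the summed counts of 5 mice its log2 fold change was -0.61 (SE 0.31, edgeR adjusted p = 0.415). Krt10 was counted in 38.4 and 27.5% (log2 0.44, SE 0.31, edgeR adjusted p = 0.618). Krt222 was counted in 27.4 and 7.49%, or 34.4 and 12.6 CPM in the pooled counts, and was too low for the fit. Krt1 reached 141 CPM in female 2, the shallow library, against 67.2 to 80.0 CPM in the other 5 mice, and that library's part in its level was not tested.

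The relation to Nr5a1 and Pdyn was described in the 407 Slc17a6 neurons by which of the 2 genes had a count. Krt18 was counted in 34 of 84 neurons with both (40.5%, exact interval 29.9 to 51.7%), in 23 of 115 with Pdyn only (20%, 13.1 to 28.5%), in 5 of 53 with Nr5a1 only (9.43%, 3.13 to 20.7%) and in 11 of 155 with neither (7.10%, 3.6 to 12.3%). In CPM over mice with at least 5 such neurons these classes stood at 95.3 ± 23.7 (n = 5), 42.3 ± 33.3 (n = 6), 18.2 ± 27.2 (n = 5) and 26.5 ± 19.4 (n = 6). The class with both genes was highest, and its lowest mouse was at 76.5 CPM. Its neurons were also the deepest, with a median of 7924 counts against 6939, 5936 and 5830, and after thinning to 2000 counts the shares were 14.3, 9.82, 3.85 and 2.08%.

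As deposited, Nefm ran in a similar order, with 59.5, 37.4, 20.8 and 31.0% of the 4 classes. Nefl was counted in 96.4, 76.5, 77.4 and 73.5%. After the same thinning the shares were 29.8, 17.0, 9.62 and 12.5% for Nefm and 65.5, 58.9, 57.7 and 50% for Nefl. The class with Nr5a1 and Pdyn stayed highest for each, but its lead in Nefl was smaller than as deposited. Vim was not detected among the 84 neurons with both genes (95% exact interval up to 4.30%). It was counted in 6 of the 115 with Pdyn only, 4 of the 53 with Nr5a1 only and 3 of the 155 with neither.

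**Figure D4:**
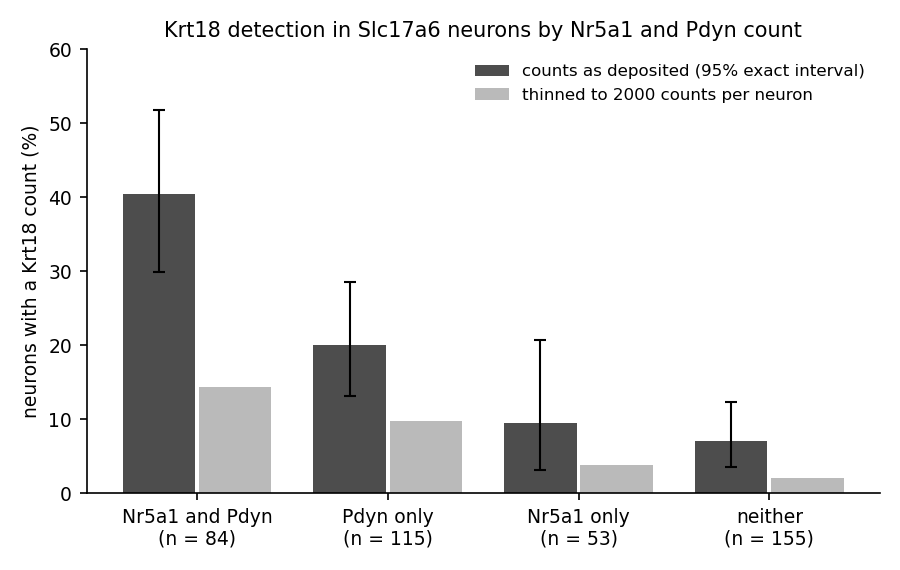
Share of Slc17a6 neurons with a Krt18 count, in percent, by whether Nr5a1 and Pdyn had a count. Dark bars are counts as deposited with 95% exact binomial intervals (counting error only) and light bars are after thinning to 2000 counts; both fall from 40.5 and 14.3% with both genes to 7.10 and 2.08% with neither.

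Splitting the Slc17a6 neurons by Pdyn gave sums in all 6 mice. Krt18 without and with Pdyn was at 56.9 and 116 CPM in female 1, 31.1 and 108 in female 2, 9.67 and 45.2 in female 3, 0 and 67.1 in male 1, 18.1 and 70.7 in male 2, and 36.3 and 61.6 in male 3. The female 2 sum with Pdyn held 7 neurons and 18481 counts, the smallest sum of the fit, so its 108 CPM rests on very few Krt18 counts. Krt18 was higher with Pdyn in 6 of 6 mice, with overlap between mice, and the log2 fold change was 1.68. Nefm went from 106 ± 52.6 to 149 ± 33.7 CPM (n = 6, log2 0.59) and was higher in 5 of 6. Both values are descriptions, for the reason given above. In this fit 1.68% of 3939 genes were called (40 or 1.02% higher, 26 or 0.66% lower), 3.0% were higher and 2.77% lower in every mouse, and the count fell to 40 without female 3 and to 38 without male 1.

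Nefl and Ina, which were not among the genes seen in the choosing cluster, were tested. Nefl is still not independent of Nefm, with which it correlated over neurons at r = 0.40. Nefl was at 536 ± 140.2 CPM without and 611 ± 84.9 CPM with Pdyn (n = 6 mice), higher in 4 of 6 (log2 0.28, SE 0.09, edgeR adjusted p = 0.119), and Ina at 187 ± 47.9 and 174 ± 57.5 CPM (n = 6, log2 -0.05, SE 0.14, edgeR adjusted p = 0.955), a sign that turned without male 1 (0.04) or male 3 (0.05). Nefl passed when neurons without Slc17a6 were added (log2 0.39, edgeR adjusted p = 0.0141). Of the 22 microtubule genes tested, Tubb2b (1865 to 1583 CPM, log2 -0.35, edgeR adjusted p = 0.000942, lower in 5 of 6 mice) and Stmn1, a tubulin-sequestering gene (1819 to 1493 CPM, log2 -0.31, edgeR adjusted p = 0.00299), fell and none rose, with a median of -0.15 against -0.02 over all genes. Each was lost without female 1 or female 3 (highest edgeR adjusted p 0.0649 and 0.0604).

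Splitting by Nr5a1 could be done in 5 mice, female 2 having 3 neurons with a count. Krt18 without and with Nr5a1 was at 68.5 and 108 CPM in female 1, 8.05 and 60.8 in female 3, 32.3 and 59.1 in male 1, 37.4 and 50.4 in male 2, and 45.1 and 66.8 in male 3. It was higher in 5 of 5 mice (log2 0.87), where 4.85% of the 3941 genes were higher and 4.87% lower in every mouse, and is given with no test. Nefl was at 518 ± 30.9 and 599 ± 119 CPM (n = 5, log2 0.21, SE 0.09, edgeR adjusted p = 0.42), and Ina at 164 ± 49.7 and 182 ± 62.5 CPM (n = 5, log2 0.11, SE 0.14, edgeR adjusted p = 0.882). The fit called 18 genes, 0.457% (0.279% higher, 0.178% lower), and 30 without female 1, 7 without female 3 and 10 without male 3. None of the microtubule, motor, cytolinker, lamin, growth or immediate early genes tested was among the 18. The 3 splits use the same neurons, so their values are set side by side and not counted as separate support.

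Clustering the 517 neurons with the 10 genes left out gave 10 clusters, used here as a description. Pdyn and Nr5a1 were not among the genes left out. High Krt18, Nefm, Pdyn and Nr5a1 in 1 cluster was the earlier result by which the genes were chosen, so its return here is no separate support. Cluster 1 (84 neurons of all 6 mice, led by Glipr1, Lamb3 and Cmbl) held 59.7% of all Krt18 counts. In it 46.4% of neurons had Krt18 (118 ± 26.1 CPM, n = 6 mice), 98.8% Nefl, 66.7% Nefm and 70.2% Ina, while 83.3% had Pdyn, 59.5% had Nr5a1 and 0 had Vim. Its median depth of 8438 counts was the highest of the 10. Elsewhere Krt18 was counted in 23.8% of the 21 neurons led by Pomc, the melanocortin precursor of arcuate neurons, in 22.2% of cluster 7, in 18.2% of cluster 6 and in 3.12 to 8.43% of the other clusters.

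At the other end, cluster 5 (59 neurons led by the transcription factor genes Nfix, Nfib and Nfia) had Nefm in 6.78%, Krt18 in 3.39% and Ina in 39.0% of neurons, although Nr5a1 was counted in 30.5% and Pdyn in 40.7%. The 13 neurons led by Sst had Nefl in 23.1% and Nefm in 0. These shares are as deposited, cluster 1 had the highest median depth of all clusters, and the part of depth was not tested. Vim was highest in the Pomc cluster, where 5 of 21 neurons held it (23.8%). When the 13 other wells were clustered with the neurons, as first planned, 9 clusters formed and 2 of them were high in Krt18. The cluster with most Krt18 counts (47.7%) had 69 cells of all 6 mice, 7 of them not neurons, with Krt18 in 43.5% of cells and at 90.9 ± 49.4 CPM (n = 6 mice). The other had 39 cells, 38 of female 1 and 1 of male 1, held 30 of the 149 Krt18 counts, and had Krt18 in 43.6% of cells and at 124.6 CPM in female 1.

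**Figure D5:**
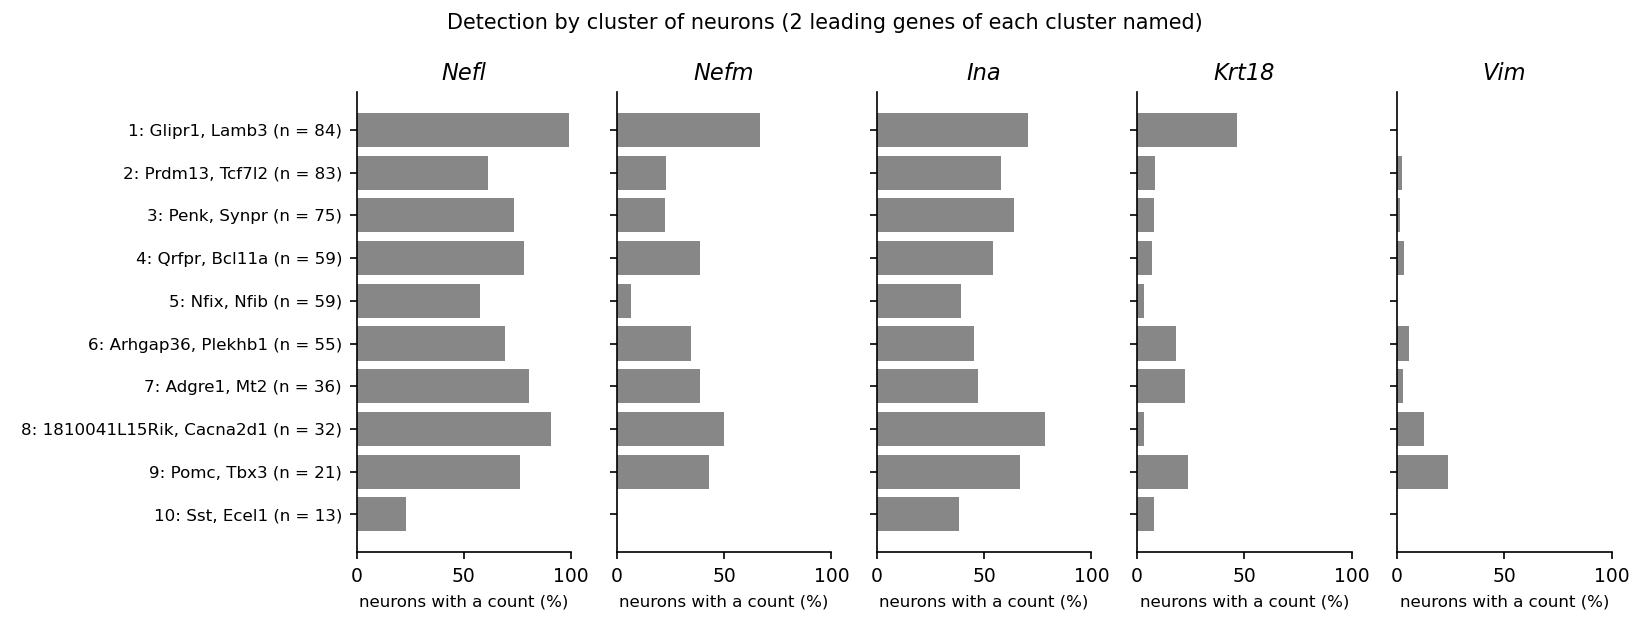
Percent of neurons with a count of Nefl, Nefm, Ina, Krt18 and Vim in each of the 10 clusters of neurons, named by their 2 leading genes with the number of neurons. Krt18 reaches 46.4% in cluster 1 and Nefm falls to 6.78% in cluster 5, while Nefl is above 50% in every cluster but the 13 neurons led by Sst.

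By transmitter, Krt18 was counted in 68 of 353 neurons with Slc17a6 and no GABA gene (19.3%), in 5 of 54 with both, in 2 of 26 with a GABA gene only and in 8 of 84 with neither, the last a shallow class with a median of 2662 counts. Median counts were 6612 with Slc17a6 and no GABA gene, 6664 with both and 5375 with a GABA gene only. After thinning, the Krt18 shares of the classes, in the order first given, were 7.33, 5.88, 8.70 and 10%. They rest on 25, 3, 2 and 6 neurons with a count. The lead of the first class as deposited was thus not seen after thinning. As deposited, Nefm was counted in 38.2% of the first class and 11.5% of the neurons with a GABA gene only. After thinning it was counted in 18.5% and in 0 of 23. Across the 517 neurons, after each mouse's mean was subtracted, the genes most like Krt18 by Pearson correlation of log counts among 6652 genes were Lamb3, a laminin chain (r = 0.30), Gng13 (0.28), Gamt (0.25), Pdyn (0.25) and Fam110a (0.25). Krt18 had r = 0.24 with Nefm, 0.22 with Nefl and 0.0013 with Ina. Nefm was most like Nefl (r = 0.40), with which it shares exonic bases, then Sv2c (0.29) and the alpha-tubulin gene Tuba4a (0.28), and Vim was most like Pomc (0.28). These values are descriptions over cells that share depth and plate. Krt8 was too rare for such a list.

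Females and males, the groups of the study, were compared over all summed neurons. Nefl was at 562 ± 45.9 CPM in females and 505 ± 32.4 in males (n = 3 each, log2 male over female -0.14), Nefm at 145 ± 15.6 and 96.1 ± 31.9 (-0.57), Ina at 193 ± 62.5 and 154 ± 11.3 (-0.31), Krt18 at 47.1 ± 31.7 and 43.9 ± 6.05 (-0.10) and Nefh at 18.6 ± 14.0 and 20.2 ± 4.90 (0.10). In each pair the sexes overlapped, as they did not for 8.52% of all genes tested, and edgeR's adjusted p was 0.999 for all 5. Krt18 turned to 0.71 without female 1 and Nefh to -0.05 without female 2 and -0.30 without female 3. edgeR called 0 of 6771 genes (0.0%), with 165 at an unadjusted p under 0.05, and DESeq2 called 4, so no member was called in a fit that called almost none.

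After thinning, Nefm was counted in 23.9 ± 7.09% of female and 12.4 ± 3.56% of male neurons (n = 3 each). The 3 females, at 17.1, 31.3 and 23.3%, lay above the 3 males, at 16.5, 10.8 and 9.89%, where 8.49% of the 6771 genes of the sex fit had shares without overlap. The difference of -11.5 points (male minus female) shrank and the sexes overlapped in the shares as deposited (-3.73), at 2 counts or more (-1.42), and after thinning to 1000 (-3.61) or 4000 counts (-2.55, with 3 neurons left in female 2). Nefl, which overlapped at 2000 counts, did not at 1000 or 4000. At 2000 counts a two-sided exact permutation test for Nefm gave p = 0.1, the smallest that 3 against 3 mice allow, and an adjusted p of 1. Krt18 was counted in 7.81 ± 6.91% of female and 7.21 ± 1.53% of male neurons (n = 3 each, exact permutation p = 1).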

How the data were processed

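Single sorted cells of 3 female and 3 male mice were analysed from 6 tables of read counts per gene and well, deposited by the authors as whole numbers. Per the submitters' processing notes HTSeq and mm10 were used; no source used here names the aligner, the strand setting or any use of molecular tags. The members and gene lists were chosen with earlier results of these data known. Wells needed 500 genes and under 25% mitochondrial counts. Counts were summed per mouse, or per mouse and class of Slc17a6 neuron with at least 5 neurons per sum, and tested with edgeR 4.0.16 (R 4.3.3; TMM, filterByExpr, quasi-likelihood, Benjamini-Hochberg at 0.05) with the split gene left out and mouse as a block in the splits, whose 2 sums come from the same animal. The code was tested on simulated data. DESeq2 1.42.0, other scalings, filters, thinning and each mouse left out were alternatives. Clusters used scanpy 1.11.5 and leidenalg 0.10.2 (2000 variable genes, 20 components, 10 neighbours, resolution 1). Named genes were the members, list genes that passed (up to 6 per list), and up to 8 others per direction with at least 20 CPM in 1 sum and the same sign in every mouse, by smallest p; SEs derive from the test statistic. Thinning used 2000 counts. Gene positions are GENCODE vM21 on GRCm38.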

Additional observations from a re-analysis of the deposited data

Results flagged for a closer look

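In 30 groups of 5 or 6 mice, 4 held a mouse that lay far from the others by Dixon's criterion at 95%, which chance gives in about 1 group in 20. Krt18 in neurons with Nr5a1 was 108 CPM in female 1, above the other 4 mice. Nefl in neurons with Krt18 was 525 CPM in female 1, below the other 4. Ina was highest in female 3 both in neurons with Pdyn (288 CPM) and in neurons with Krt18 (256 CPM).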

How the results depend on the processing

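Without the mouse term, that is with no replicate block, the Krt18 split called 1 gene, the Pdyn split 0 and the Nr5a1 split 0, against 80, 66 and 18 with the pairing by mouse; the cause was not tested. DESeq2 called 29, 22 and 4, thinning to 2000 counts left 6, 10 and 2 with fewer genes tested, and the Nr5a1 split called 42 with no filter on low counts and 46 in all neurons. Leaving out 1 mouse gave 40 to 64, 38 to 73 and 7 to 30 calls. For sex, DESeq2 called 4, no filter 24, and leaving out 1 mouse 0 to 3 (3 without female 1, 1 without female 2, 1 without male 3).

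The titles number mice 1 to 3 in each sex, but same-numbered mice correlated at -0.13, -0.085 and 0.16 in their deviations and not every mouse correlated best with its own number, so only a number is shared. A replicate block on it called 0 genes, and Krt18 by sex became 0.041 (log2 male over female).

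With 1 mouse left out, log2 values by sex ranged from -0.30 to 1.01 for Nefh (also -0.049 without female 2), from -0.48 to 0.71 for Krt18 and from -0.067 to 0.89 for Pdyn; Ina ranged from -0.19 to 0.050 in the Pdyn split (0.039 without male 1) and from -0.15 to 0.025 in the Krt18 split. Ina in the Pdyn split was 0.0039 in all neurons. Male minus female shares turned for Nefl as deposited (2.5 points) and at 2 counts or more (5.51), and for Krt18 likewise (1.96 and 2.41), with -2.77 to 3.38 when 1 mouse was left out (0.248 without male 1). Differences in share between neurons with and without Krt18 turned for Nefh after thinning to 1000 counts (-1.58) and at 2 counts or more (-0.968), ranging from -1.59 to 2.54 with 1 mouse left out, and for Ina as deposited (0.109) and at 2 counts or more (4.68), ranging from -2.32 to 0.818, while thinning to 4000 counts gave -12.3 for Ina. The cause of these turns was not tested.

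The share of Krt18 counts in the cluster with most of them moved from 47.7% to 59.7% when only neurons were clustered, an alternative chosen after seeing the data; in the planned clustering 30 of the 149 counts lay in a cluster of 38 cells of female 1 and 1 of male 1. The split by Krt8 could not be fitted, since no mouse had 5 neurons with a count. Depth limits all statements on Krt8, Prph, Vim, Nes and Gfap.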
